A study of Mus musculus with 18 samples.

Results

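The genes described here are 10 markers of hepatic stellate cells and of liver fibrosis: the fibrillar collagens Col1a1, Col1a2 and Col3a1, the small proteoglycans Lum and Dcn, the metalloproteinase inhibitor Timp1, the ligand Tgfb1, the receptor Pdgfrb, and the cytoskeletal genes Acta2 and Des. They were picked by gene symbol and are 10 of the 19057 genes in the deposited table. Liver mRNA was measured in 18 libraries from male ICR mice of 10 weeks of age, 3 libraries in each of 6 groups. Con mice received a regular diet and saline. HS mice received a high-fat diet and streptozotocin (STZ), a toxin of the insulin-producing beta cells that is used to induce diabetes. A10-FMT and Con-FMT mice were HS mice that also received gut microbiota, either of donors on alginate oligosaccharide (AOS, 10 mg/kg) or of control donors. The A10 group (10 mg/kg AOS) and the HS+A10 group (high-fat diet, STZ and 10 mg/kg AOS) are known from the labels alone. The donor material was pooled within each donor group, so that the recipients of a group shared an inoculum. No source says whether a library is 1 mouse or several, and p-values therefore measure only the spread between these samples.

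Stellate cells lie between the hepatocytes and the sinusoidal endothelium and store vitamin A while quiescent. After injury they turn into contractile myofibroblasts, driven above all by TGF-beta1 and by PDGF acting through PDGF receptor beta. Activated cells express smooth muscle actin (Acta2), deposit type I and type III collagen, and secrete TIMP-1, which slows the breakdown of matrix. Desmin (Des) marks rodent stellate cells in both states, and decorin (Dcn) and lumican (Lum) are proteoglycans that bind collagen fibrils. The libraries came from whole liver, in which fewer cells of a type and less RNA per cell cannot be told apart.

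The values are RPKM, the reads of a gene scaled by its length and by the mapped reads of the library, so levels may be compared between genes. Of the 10 markers, 9 averaged 1 RPKM or more across all 18 libraries and were tested together with all 10204 genes at that level. Timp1, at a mean of 0.295 RPKM, was not. Differences were tested with limma on log2(RPKM + 1), and a gene was called at a Benjamini-Hochberg adjusted p under 0.05. On this scale a difference understates the change of genes near 1 RPKM. With 3 libraries against 3, the exact two-sided permutation test of a single gene cannot give a p under 0.1.

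Several libraries stood apart. HS replicate 2 held the highest level of 6 of the 10 markers (Col1a1, Col1a2, Col3a1, Lum, Dcn and Pdgfrb), against 8.90% of all tested genes, and its summed red blood cell genes reached 12050 RPKM, above the other HS libraries at 4214 and 6715. Con-FMT replicate 3 held pancreatic mRNAs at 3.66% of its RPKM sum (at most 0.00679% elsewhere) and the highest level of Acta2 and Des, against 8.46% of all tested genes. In Con and in A10, replicate 3 lay between replicates 1 and 2 for 98.6% and 96.3% of the 140 and 135 genes on which those replicates differed by over 1 on the log2 scale. Whether these libraries are independent samples is not known, and if they are not, n = 3 is too high and the standard errors and p-values of comparisons with Con or A10 are too small. In the other 4 groups a library lay between the remaining pair for 54.9 to 74.4% of such genes. RPKM sums ranged from 692818 to 806937, and the relative depth from 0.952 to 1.06 of the mean. That depth was estimated from 64 genes picked because their values above 0 were nearly equal across libraries. The choice itself keeps the range narrow, so it does not show that the depths were alike. How many reads each library held is unknown, and counting intervals cannot be given. The calls over all genes leaned to a direction and moved with scaling. In HS against Con, 1618 genes were higher and 191 lower, and 398 and 486 once libraries were scaled to the same median. In A10-FMT against HS the numbers were 213 and 2145, then 639 and 516, in Con-FMT against HS 470 and 1943, then 858 and 1241, and in A10-FMT against Con-FMT 686 and 1228, then 1302 and 958. In HS+A10 against HS they were 301 and 446, then 579 and 356.

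The fibrillar collagens form the scar matrix, and type I collagen is a trimer of the products of Col1a1 and Col1a2. Col1a1 (GRCm38, chromosome 11, 94936224 to 94953042, plus strand) was at 1.04, 0.64 and 1.08 RPKM in Con replicates 1 to 3, at 0.51, 0.57 and 0.78 in A10, and at 1.21, 4.85 and 0.84 in HS. In HS+A10 it was at 0.89, 1.62 and 1.42 RPKM. The A10-FMT libraries held 2.53, 1.40 and 1.54 RPKM, those of Con-FMT 1.48, 1.16 and 2.09. HS replicate 2 was far above the other libraries, while HS replicate 3 lay within the Con range, and only A10-FMT and Con-FMT lay wholly above Con. Their lowest libraries, at 1.40 and 1.16 RPKM, compare with 1.08 in the highest Con library.

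Col1a2 (chromosome 6, 4504814 to 4541544, plus strand) was at 1.87, 1.79 and 1.82 RPKM in Con and at 1.5, 1.28 and 1.63 in A10. It was at 2.77, 7.69 and 2.16 RPKM in HS, at 3.18, 3.72 and 3.43 in HS+A10, at 4.72, 2.54 and 3.15 in A10-FMT, and at 3.37, 2.28 and 3.46 in Con-FMT. All 12 libraries of the 4 groups with high-fat diet and STZ thus lay above all 6 libraries without, the nearest at 2.16 and 1.87 RPKM, which held for no other marker. The share of all tested genes that separate in this way was not counted. In HS against Con alone, 32.6% of all tested genes lay wholly higher. The order of the group means was HS, A10-FMT, HS+A10, Con-FMT, Con and A10, and the first 4 overlapped their neighbours.

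Col3a1 encodes type III collagen and was the most abundant of the collagens (chromosome 1, 45311538 to 45349706, plus strand). Its levels were 4.60, 4.80 and 4.43 RPKM in Con, 4.16, 4.08 and 4.07 in A10, and 5.96, 19.61 and 4.21 in HS. They were 6.70, 9.88 and 8.72 RPKM in HS+A10, 12.17, 6.53 and 8.07 with AOS-modified microbiota (A10-FMT), and 6.54, 6.62 and 7.41 in Con-FMT. HS replicate 3 was the 1 library of the 4 HS-type groups that did not exceed every Con and A10 library.

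**Figure D1:**
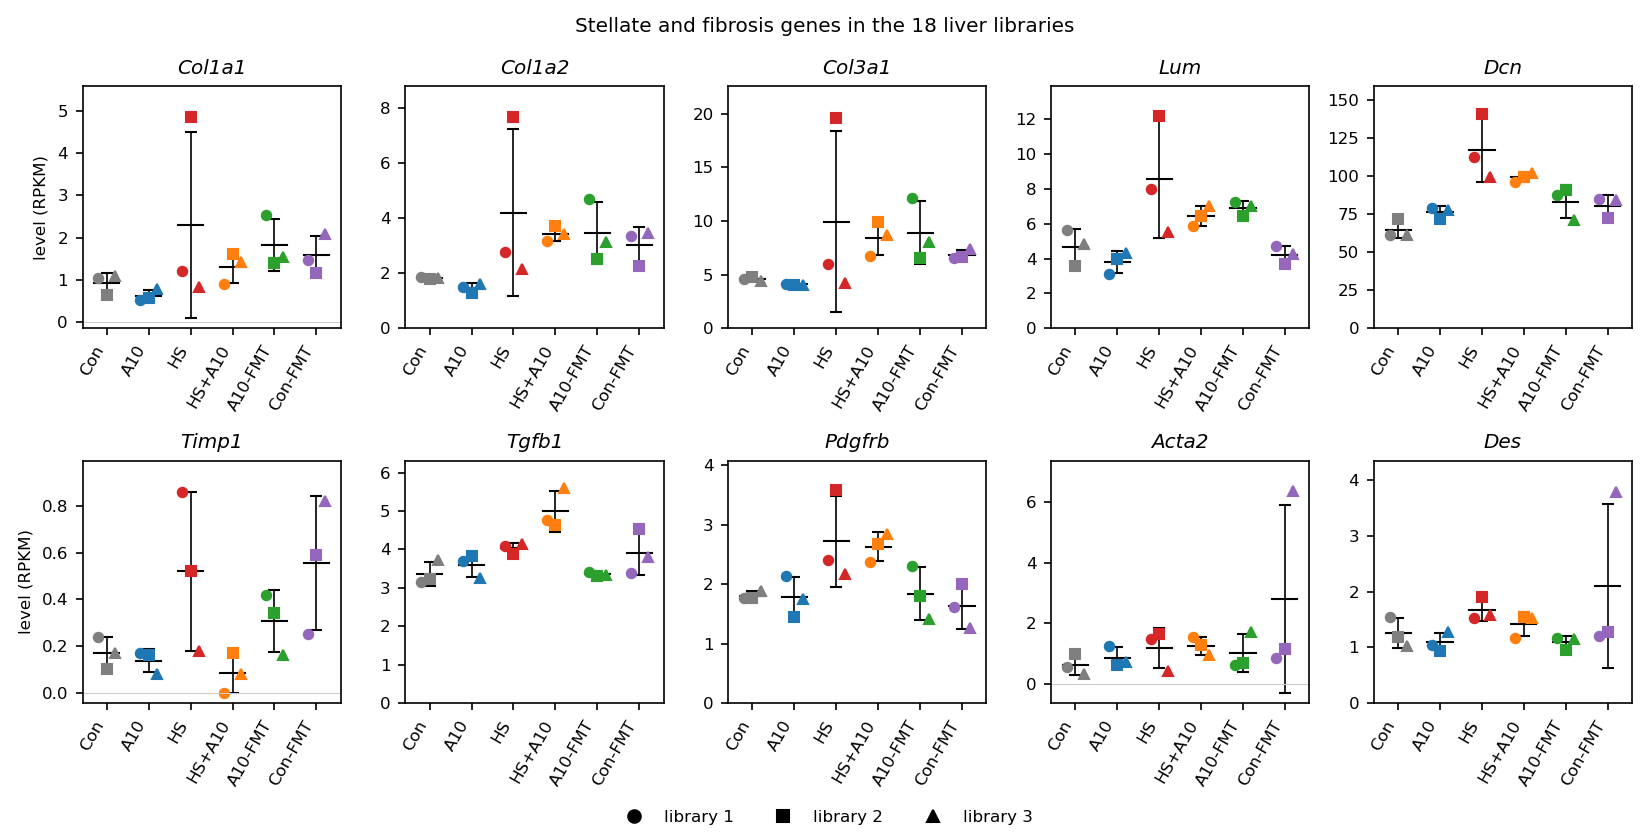
Levels of the 10 markers in RPKM (linear axis from 0) in the 6 groups, with 1 point per library, the mean as a bar and the SD as whiskers (n = 3). HS replicate 2 (red square) stands above the rest for the collagens, and Con-FMT replicate 3 (purple triangle) for Acta2 and Des.

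The 3 collagen genes moved together from library to library. Over the 18 libraries, Pearson's r on log2(RPKM + 1) was 0.962 for Col1a2 and Col3a1, 0.933 for Col1a1 and Col1a2, and 0.927 for Col1a1 and Col3a1. Without HS replicate 2 and Con-FMT replicate 3 these values were 0.936, 0.886 and 0.887 over 16 libraries. The libraries share groups and scaling, so these values are descriptions only. The ratio of Col3a1 to Col1a2 stayed between 1.94 and 3.19 (median 2.54), while each gene varied by 4.82-fold and 6.01-fold. The tested genes outside the markers that were most like Col1a1 over the 18 libraries were Col6a2 (r = 0.908), Col6a1 (r = 0.881) and Smoc2 (r = 0.839). Col6a2, a chain of the microfibrillar type VI collagen, was also first for Col1a2 (r = 0.896) and Col3a1 (r = 0.885), followed in both by Olfml3 (r = 0.874 and 0.875), and then by Ccdc80 for Col1a2 (r = 0.853) and Col6a1 for Col3a1 (r = 0.841).

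Because Col1a2 and Col3a1 had the highest correlation among the markers, DNA from their RefSeq promoter windows is shown, from RefSeq (GRCm38.p6), 5′ to 3′ on the plus strand and outside the annotated exons of either gene. Of the 10 markers, 6 had an entry in the RefSeq promoter table. The stretch of Col1a2 is chr6:4505370-4505492, with GGGCGG in capitals and within an intron of a longer annotated transcript, and that of Col3a1 is chr1:45311388-45311537, with TATAAA in capitals.
Col1a2: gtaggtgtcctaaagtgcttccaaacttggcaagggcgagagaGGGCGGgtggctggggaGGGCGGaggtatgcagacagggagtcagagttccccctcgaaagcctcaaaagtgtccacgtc
Col3a1: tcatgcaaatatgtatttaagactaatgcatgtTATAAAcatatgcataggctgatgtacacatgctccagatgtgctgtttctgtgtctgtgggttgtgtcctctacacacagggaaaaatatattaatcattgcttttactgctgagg
5 motifs were searched on both strands, and the stretches have no match to the same one. With the RefSeq start as position 0, the motif GGGCGG begins at -205 and -188 in Col1a2, and of 32851 RefSeq windows of 300 bases 35.7% hold it. The motif TATAAA begins at -117 in Col3a1, and 13.6% of windows hold it. Outside the stretch shown, the window of Col1a2 also holds CCAAT at -109 and, on the other strand, at 0, as do 37.4% of windows at any position. The motif TGANTCA (7.81% of windows) and the CArG box (1.63%) had no match in either window. A match describes these letters and nothing more.

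The proteoglycans gave the clearest differences. Dcn (chromosome 10, 97479609 to 97518143, plus strand) was the most abundant marker, at 61.57, 71.61 and 61.37 RPKM in Con, 79.23, 71.85 and 77.48 in A10, and 112.39, 140.46 and 99.02 in HS. In HS+A10 it was at 96.06, 99.24 and 101.73 RPKM. The A10-FMT libraries held 87.65, 90.89 and 71.16 RPKM, those of Con-FMT 84.87, 72.26 and 84.04. HS and HS+A10 did not overlap with any of the other 4 groups, and both recipient groups lay between HS and Con in their means. The genes most like Dcn were Bgn (r = 0.936), which encodes the related proteoglycan biglycan, Plvap (r = 0.936), a gene of endothelial cells, and Igfbp7 (r = 0.928).

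Lum, which lies near Dcn on the same chromosome (97565128 to 97572703, plus strand), was at 5.63, 3.60 and 4.81 RPKM in Con and at 3.12, 3.95 and 4.33 in A10. It was at 7.96, 12.16 and 5.50 RPKM in HS, at 5.89, 6.41 and 6.99 in HS+A10, and at 7.21, 6.43 and 7.0 in A10-FMT. In Con-FMT it was at 4.69, 3.69 and 4.24 RPKM, within the range of the Con and A10 libraries and below every HS, HS+A10 and A10-FMT library. The genes most like Lum were Rspo3 (r = 0.875), which encodes a secreted amplifier of Wnt signalling, Mxra7 (r = 0.866) and Ppic (r = 0.846).

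Timp1 was close to the limit of what these libraries could measure (chromosome X, 20870166 to 20874735, plus strand). Its levels were 0.24, 0.10 and 0.17 RPKM in Con, 0.17, 0.16 and 0.08 in A10, 0.86, 0.52 and 0.18 in HS, and 0, 0.17 and 0.08 in HS+A10. They were 0.42, 0.34 and 0.16 RPKM in A10-FMT, while the Con-FMT libraries held 0.25, 0.59 and 0.82. The values were multiplied by the relative depth, and the step that brought them nearest to whole numbers of steps was picked, about 0.084 RPKM. At that step 15 of 18 lay within 0.15 of a whole number, and the libraries held 0 to 10 steps (median 2). Because the step was picked for this closeness, the closeness is no separate evidence of such a spacing. A difference of a few steps is not detectable at this depth. The tested genes most like it were Serping1 (r = 0.851), Eif2b1 (r = 0.821) and Crip1 (r = 0.79).

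The ligand Tgfb1 (chromosome 7, 25687002 to 25705077, plus strand) varied least, 1.78-fold between its lowest and highest library. It was at 3.15, 3.24 and 3.73 RPKM in Con, 3.69, 3.84 and 3.25 in A10, 4.09, 3.89 and 4.13 in HS, and 4.76, 4.63 and 5.61 in HS+A10. In A10-FMT it was at 3.41, 3.32 and 3.34 RPKM and in Con-FMT at 3.39, 4.53 and 3.8. The HS+A10 libraries were the 3 highest of all 18, and HS lay wholly above Con and above A10-FMT. The genes most like it were Frrs1 (r = 0.908), Nars2 (r = 0.843) and Tusc3 (r = 0.84).

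The receptor Pdgfrb, on chromosome 18, was at 1.77, 1.77 and 1.89 RPKM in Con, 2.14, 1.45 and 1.76 in A10, and 2.40, 3.59 and 2.17 in HS. It was at 2.38, 2.67 and 2.85 RPKM in HS+A10, 2.30, 1.81 and 1.41 in A10-FMT, with 1.61, 2.01 and 1.26 in Con-FMT. HS and HS+A10 again lay highest, and the means of both recipient groups, 1.84 and 1.63 RPKM, were close to that of Con at 1.81. The genes most like it were Eif5 (r = 0.931), Map4k4 (r = 0.887) and Ptp4a2 (r = 0.848).

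Acta2, the usual marker of the myofibroblast state (chromosome 19, 34241090 to 34255590, minus strand), was low and uneven. Its levels were 0.57, 0.99 and 0.33 RPKM in Con, 1.26, 0.62 and 0.72 in A10, 1.49, 1.64 and 0.43 in HS, and 1.53, 1.29 and 0.94 in HS+A10. In A10-FMT they were 0.61, 0.70 and 1.72 RPKM, and in Con-FMT 0.85, 1.16 and 6.36. Each HS-type group overlapped with Con or with A10, and the value of 6.36 belongs to Con-FMT replicate 3.

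Des, the intermediate filament gene of stellate and muscle cells (chromosome 1, 75360329 to 75368579, plus strand), was at 1.55, 1.19 and 1.02 RPKM in Con, 1.05, 0.94 and 1.27 in A10, and 1.52, 1.90 and 1.58 in HS. It was at 1.17, 1.55 and 1.53 RPKM in HS+A10, 1.17, 0.95 and 1.15 in A10-FMT, with 1.21, 1.28 and 3.79 in Con-FMT. Except for Con-FMT replicate 3, all libraries lay between 0.94 and 1.90 RPKM. Acta2 and Des correlated over the 18 libraries (r = 0.782) but not over the 16 without HS replicate 2 and Con-FMT replicate 3 (r = 0.111).

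Con-FMT replicate 3 also held the highest level of 5 of the 6 listed vascular smooth muscle genes, Des among them, of 5 of 6 mesothelial genes, of 4 of 5 adipocyte genes and of all 18 acinar genes of the pancreas. The summed smooth muscle list was 15.46 RPKM there and 2.94 to 5.11 in the other 17 libraries, with Myh11, the myosin of smooth muscle, at 3.36 against at most 0.50 and Actg2 at 4.69 against at most 0.52. The genes most like Acta2 over the 18 libraries were Rnase1 (r = 0.832), Ins2 (r = 0.832) and Dmbt1 (r = 0.831), and those most like Des were Flna (r = 0.857), Rnase1 (r = 0.855) and Nupr1 (r = 0.855). Rnase1 and Ins2 are genes of the acinar and the beta cells of the pancreas. Skeletal muscle genes were near 0 (0.41 to 2.22 RPKM summed, with 2 of 8 listed at 0 in all libraries). The part of other cells in the Acta2 and Des values was not tested.

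**Figure D2:**
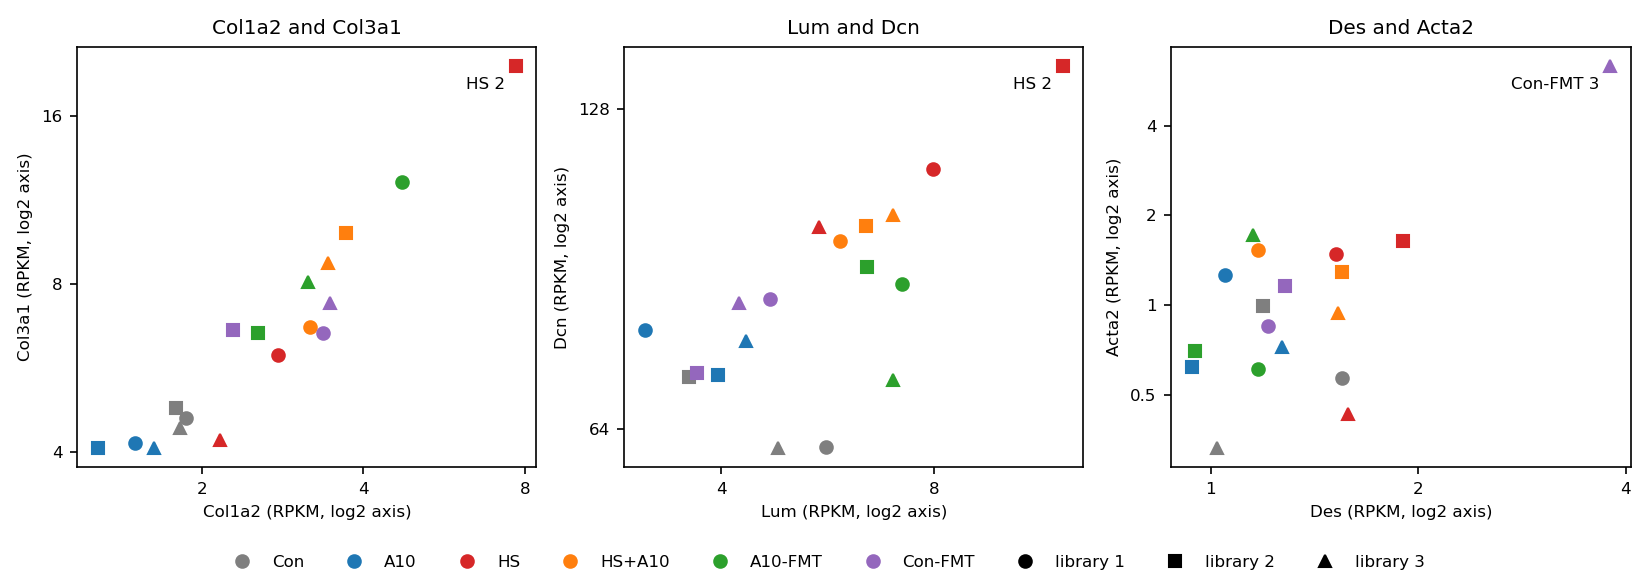
Levels of 3 pairs of markers in RPKM on log2 axes, with 1 point per library, coloured by group and shaped by replicate number. Col1a2 and Col3a1 lie along a line (r = 0.962), while Des and Acta2 are set apart by Con-FMT replicate 3, at 3.79 and 6.36 RPKM.

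The first comparison asked how high-fat diet with STZ changed these genes. Dcn rose from a mean of 64.85 to 117.3 RPKM (log2 change 0.83, SE 0.121, adjusted p = 0.0006924, limma), and Lum rose from 4.68 to 8.54 RPKM (log2 change 0.70, SE 0.193, adjusted p = 0.02277). Thus 2 of the 9 tested markers were called higher and 0 lower, against 15.9% and 1.87% of all tested genes. All 9 changes were positive, with a median of 0.59 against 0.14 over all genes. Leaving out HS replicate 2 lowered the median of the markers to 0.23, against 0.14 over all genes. At the threshold of 0.05, Dcn was called under all 16 other fits, with an adjusted p from 0.000379 to 0.0251, but its change did not reach the stricter limit of 1 on the log2 scale. Lum was called under 8 of 16 (adjusted p 0.00307 to 0.117), and was not without HS replicate 2 (log2 change 0.44, adjusted p = 0.08962), Con replicate 2 (adjusted p = 0.0769) or Con replicate 3 (adjusted p = 0.05532).

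The collagens did not pass the test in this comparison. Their log2 changes were 0.73 for Col1a2 (SE 0.271, adjusted p = 0.07134), 0.69 for Col3a1 (SE 0.345, adjusted p = 0.165) and 0.59 for Col1a1 (SE 0.312, adjusted p = 0.1905). With HS replicate 2 left out they were 0.29, 0.10 and 0.08, with adjusted p-values of 0.2811, 0.7536 and 0.8201. Without HS replicate 3, Col1a2 and Col3a1 were called higher (adjusted p 0.0229 and 0.0386). The means of HS for these genes therefore depend on which library is left out. The change of Pdgfrb was 0.39 (adjusted p = 0.07983), of Tgfb1 0.21 (adjusted p = 0.1189), of Acta2 0.39 (adjusted p = 0.5092) and of Des 0.25 (adjusted p = 0.43). The groups did not overlap for 4 of 10 markers, Col1a2, Dcn, Tgfb1 and Pdgfrb, all higher in HS, against 32.6% of all tested genes, each with an exact permutation p of 0.1.

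A comparison of the mean of the 4 groups with high-fat diet and STZ against the mean of Con and A10 was added after the data had been seen. In it, 6 of 9 tested markers were higher and 0 lower, against 20.3% and 12.1% of all tested genes. Dcn rose by 0.41 (SE 0.0741, adjusted p = 0.0007404, limma), Col1a2 by 0.73 (SE 0.166, adjusted p = 0.003739), Lum by 0.49 (SE 0.118, adjusted p = 0.005643) and Col3a1 by 0.74 (SE 0.211, adjusted p = 0.01417). Col1a1 rose by 0.57 (SE 0.191, adjusted p = 0.03177) and Tgfb1 by 0.17 (SE 0.0551, adjusted p = 0.0286). Pdgfrb, Acta2 and Des had changes of 0.17, 0.42 and 0.21 with adjusted p-values of 0.1599, 0.2041 and 0.2449. All 6 remained called without HS replicate 2, with the adjusted p of Col1a1, Col1a2 and Col3a1 at 0.007342, 0.0003328 and 0.0009053. Over 26 alternatives, Col1a1 was called in 18 and Tgfb1 in 19. Col1a1 was lost without replicate 1 or 2 of Con or of A10, HS+A10 replicate 2 or A10-FMT replicate 1 (adjusted p 0.05008 to 0.0781), and Tgfb1 without replicate 1 or 2 of Con or A10 replicate 3 (0.06507 to 0.09046) and with median scaling (0.122). Without 4 libraries (replicate 3 of Con, of A10 and of Con-FMT, and HS replicate 2) the changes were 0.62 for Col1a2, 0.57 for Col3a1, 0.48 for Col1a1, 0.47 for Lum and 0.35 for Dcn, each with an adjusted p between 0.005541 and 0.02138, against 10.8% of all genes called higher, and of the 6 calls that of Tgfb1 was lost (adjusted p = 0.09815). Without Con and A10 replicate 3 alone, 3 of 9 were called (Col1a2, Lum and Dcn), and the adjusted p of Col3a1, Tgfb1 and Col1a1 was 0.06708, 0.06878 and 0.07204. The share of all tested genes called higher was not counted in that fit or without HS replicate 2, so these marker counts cannot be set against it. When 1 library was left out, 2626 to 3458 genes were called in either direction. The control side is shared with the comparison of HS with Con, so the comparison of the 4 HS groups is no independent test of it.

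**Figure D3:**
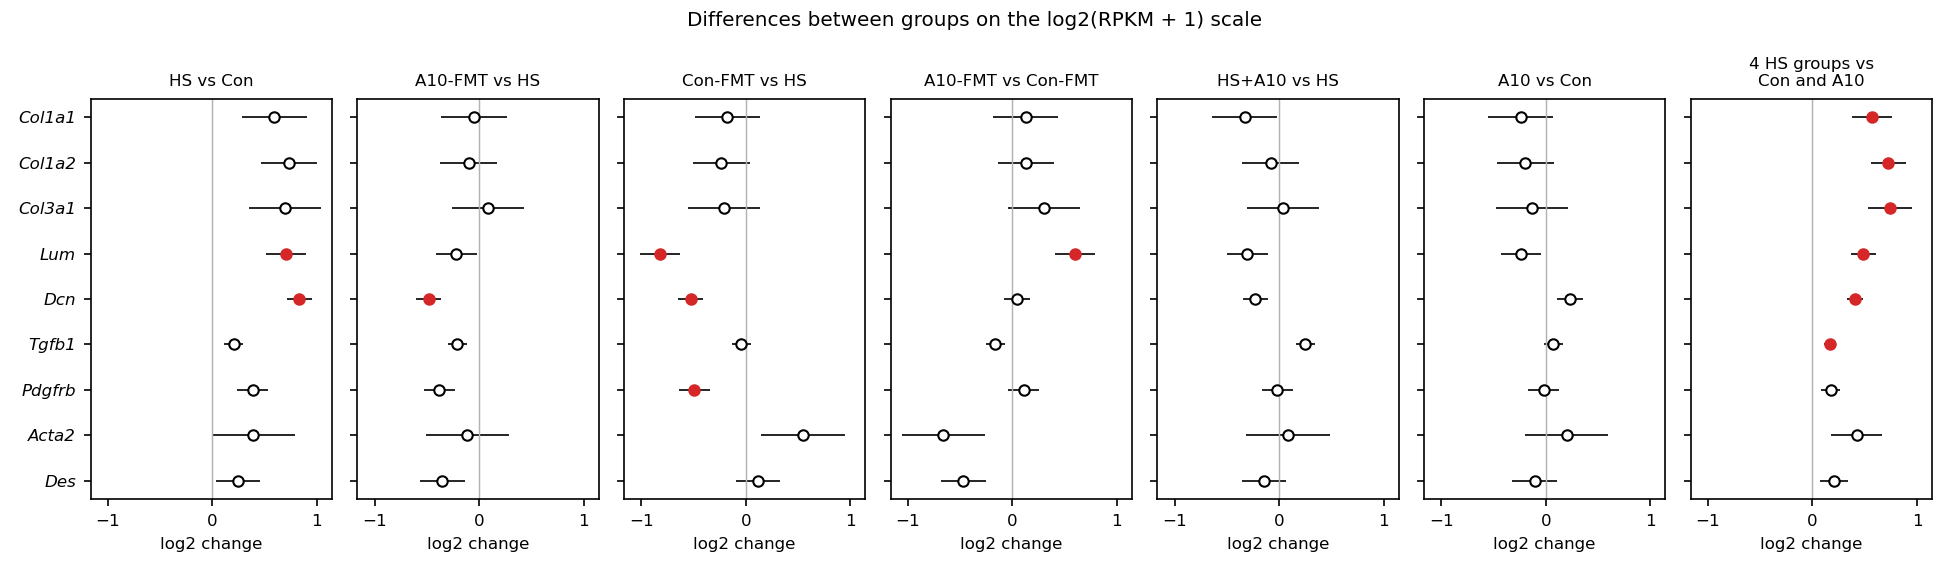
Differences between groups for the 9 tested markers on the log2(RPKM + 1) scale, with the standard error as whiskers. Red points are called at an adjusted p under 0.05 (limma). Dcn and Lum are called in HS against Con, and 6 markers in the comparison of the 4 HS groups with Con and A10.

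The recipients of microbiota were compared with HS mice to ask whether transfer changed these levels. These comparisons share the HS libraries with each other and with the comparison of HS with Con. In Con-FMT, Lum fell by 0.82 on the log2 scale (SE 0.193, adjusted p = 0.007409, limma), from 8.54 to 4.21 RPKM. Dcn fell by 0.53 (SE 0.121, adjusted p = 0.006219) and Pdgfrb by 0.49 (SE 0.148, adjusted p = 0.02539). These are 3 of 9 tested markers called lower and 0 higher, against 19.0% and 4.61% of all tested genes. The same 3 genes did not overlap between the groups (27.9% of all tested genes lay wholly lower). Without HS replicate 2 the changes of Lum and Dcn were -0.56 and -0.39 (adjusted p = 0.02824 and 0.02931), and that of Pdgfrb was -0.33 and not called (adjusted p = 0.1209). Pdgfrb was also not called without Con-FMT replicate 3 (-0.39, adjusted p = 0.09071) or Con-FMT replicate 1 (-0.49, adjusted p = 0.0567).

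In A10-FMT, Dcn was called lower than in HS, with a fall of 0.48 on the log2 scale (SE 0.121, adjusted p = 0.01196, limma), from 117.3 to 83.2 RPKM. It was the only call among 9 tested markers, against 21.0% of all tested genes lower and 2.09% higher. It was lost without HS replicate 2 (-0.35, adjusted p = 0.05612), without A10-FMT replicate 3 (-0.38, adjusted p = 0.0618) and with libraries scaled to the same median (-0.29, adjusted p = 0.08198). Dcn, Tgfb1 and Des lay wholly below HS, against 32.8% of all tested genes. Des had a change of -0.35 (adjusted p = 0.2346), which was called when Con-FMT replicate 3 was left out of the fit (adjusted p = 0.02498). The changes of the collagens were -0.05 for Col1a1, -0.10 for Col1a2 and 0.09 for Col3a1, with standard errors of 0.312, 0.271 and 0.345. When HS replicate 2 was left out, Col3a1 was higher in A10-FMT than in HS (log2 change 0.68, adjusted p = 0.03017), against 1.57% of all tested genes called higher there, so that this call depends on that library.

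Recipients of AOS-modified and of control microbiota were then compared directly. Lum was higher in A10-FMT (mean 6.88 RPKM) than in Con-FMT (4.21 RPKM), by 0.60 on the log2 scale (SE 0.193, adjusted p = 0.04151, limma). It lay wholly higher, as did 12.1% of all tested genes. It was the only call among the 9 tested markers, against 6.72% of all tested genes higher and 18.8% called in either direction. Leaving out any of the 6 libraries kept the direction (0.53 to 0.67) and lost the call, with the adjusted p between 0.05587 and 0.12. Over all 15 alternatives it ranged from 0.0211 to 0.12, and 6 kept the call. Des lay wholly lower in A10-FMT, as did 19.4% of all tested genes, with means of 1.09 and 2.09 RPKM (adjusted p = 0.139, limma). Its difference moved from -0.47 to -0.10 without Con-FMT replicate 3. Acta2 had a difference of -0.66 (SE 0.400, adjusted p = 0.2743), and without that library its mean fell below 1 RPKM and it was not tested. The remaining differences lay between -0.17 for Tgfb1 and 0.30 for Col3a1.

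AOS given directly was followed by no call among the markers. In HS+A10 against HS, 0 of 9 were called at the adjusted threshold (7.32% of all tested genes), and 1, Tgfb1, had an unadjusted p under 0.05. Tgfb1 differed by 0.25 (SE 0.0900, adjusted p = 0.1012, limma) and lay wholly higher in HS+A10, against 11.6% of all tested genes. Timp1 lay wholly lower in HS+A10, at 0.0833 against 0.520 RPKM in the mean, and 15.7% of all tested genes lay wholly lower. The gap lay between 0.17 RPKM in HS+A10 replicate 2 and 0.18 in HS replicate 3. Both are 2 of the fitted steps of 0.084 RPKM, so the groups touch when counted in these steps. In A10 against Con, 0 of 9 were called (0.0686% of all tested genes) and 0 had an unadjusted p under 0.05. Dcn lay wholly higher in A10 (76.19 against 64.85 RPKM, change 0.23, adjusted p = 0.4113), and Col1a2 and Col3a1 wholly lower (changes -0.20 and -0.14, adjusted p = 0.7895 and 0.9009), against 19.6% and 5.27% of all tested genes. The interaction, which asks whether AOS acted differently with and without high-fat diet and STZ, was called for 0 markers, 1 of which, Dcn, had an unadjusted p under 0.05 (-0.46, SE 0.171, adjusted p = 0.2799), and for 0.00980% of all tested genes.

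Genes that act with the markers were counted in 8 lists, whose counts are to be read against the share of all tested genes called in the same direction. That share was 15.9% higher in HS against Con, 9.12% without HS replicate 2, 6.31% without Con and A10 replicate 3 and 3.9% with median scaling. In HS against Con, 6 of 12 tested genes of the fibrillar and microfibrillar matrix were higher and 0 lower (Bgn, Sparc, Col5a1, Fn1, Postn and Col14a1). Postn, which encodes the matrix protein periostin, rose by 0.83 (SE 0.191) and Col14a1 by 0.82 (SE 0.189). Of the 8 tested basement membrane genes, 4 were higher, among them Col4a2 (0.71, SE 0.127) and Col4a1 (0.58, SE 0.129), the chains of sinusoidal type IV collagen. Of 13 genes of quiescent stellate cells, 5 were higher, led by Colec11, a collectin gene (1.19, SE 0.186), and Hgf, the hepatocyte growth factor (0.92, SE 0.156). The median change was 0.45 for the fibrillar list, 0.37 for the basement membrane and 0.34 for quiescent stellate genes, beside 0.14 over all genes. The counts without HS replicate 2 were 4, 4 and 3, and without Con and A10 replicate 3 they were 2, 4 and 3. With libraries scaled to the same median they were 3, 3 and 3. Lrat, the enzyme that stores vitamin A in quiescent cells, was detected in all 18 libraries, at 0.92 to 1.52 RPKM in Con, 1.58 to 2.12 in HS and 2.22 to 3.02 in HS+A10.

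The list of activated stellate cells and myofibroblasts had 2 of 11 tested genes higher in HS, Cygb (0.68, SE 0.158), a globin of stellate cells, and Cald1 (0.35, SE 0.104), a regulator of contraction. The name of the list was given here. Whether its genes Cygb and Lhx2 mark activated rather than quiescent cells was not tested, so their calls do not tell these states apart. The median change of the list was 0.20. This count, and those of the processing and TGF-beta lists, were near the 15.9% of all tested genes. Of the genes that process and crosslink collagen, 2 of 10 were higher, Serpinh1, the collagen chaperone HSP47 (0.80, SE 0.222), and Pcolce (0.56, SE 0.173), and neither was called without HS replicate 2 (0 of 10). Of matrix breakdown genes, 2 of 5 were higher, Adamts1 (0.81, SE 0.0954) and Mmp14 (0.48, SE 0.159). TGF-beta signalling had 2 of 16 higher, the co-receptor Eng (0.47, SE 0.114) and the effector Smad3 (0.38, SE 0.0763), and PDGF signalling 1 of 2, the ligand Pdgfa (0.49, SE 0.144). In HS against Con 0 genes of the 8 lists were lower. With median scaling 0 genes of the TGF-beta, PDGF and collagen processing lists were higher and 1 processing gene was lower.

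In A10-FMT against HS, where 21.0% of all tested genes were lower and 2.09% higher, 5 of 8 basement membrane genes were lower, among them Col4a1 (-0.98, SE 0.129) and Col4a2 (-0.87, SE 0.127), while 0 of 12 fibrillar genes were called in either direction. Lower were also 5 of 10 collagen processing genes, including Serpinh1 (-0.69, SE 0.222) and the prolyl hydroxylase P3h1 (-0.53, SE 0.132), and 3 of 5 breakdown genes, including Mmp14 (-0.72, SE 0.159) and Adamts1 (-0.67, SE 0.0954). The PDGF ligand Pdgfc was lower by 1.03 (log2 change -1.03, SE 0.193). Of 13 quiescent stellate genes 1 was lower, Hgf (-0.89, SE 0.156), and of 11 activated genes 2, Tpm1 (-0.51, SE 0.0921) and Cald1 (-0.40, SE 0.104). TGF-beta signalling had 3 of 16 lower, including Ski (-0.51, SE 0.129) and Eng (-0.45, SE 0.114), and 1 higher, the inhibitory Smad7 (0.51, SE 0.149). The counts of the activated and TGF-beta lists were near or under the share of all genes. Without HS replicate 2 2 collagen processing genes were lower and 0 TGF-beta genes higher (13% of all tested genes lower). With median scaling 1 processing and 3 basement membrane genes were lower, and 2 TGF-beta genes were higher and 0 lower (5.06% of all tested genes lower).

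In Con-FMT against HS, where 19.0% of all tested genes were lower, 5 of 13 quiescent stellate genes were lower, including Tcf21, a transcription factor of quiescent stellate cells (-0.82, SE 0.124), and Colec11 (-0.66, SE 0.186). Of the fibrillar list 2 of 12 were lower, Col5a3 (-0.76, SE 0.236) and Bgn (-0.52, SE 0.126), and of the basement membrane 3 of 8, including Col15a1 (-0.55, SE 0.153) and Lamc1 (-0.49, SE 0.0942). Of breakdown genes 3 of 5 were lower, with Mmp14 at -1.12 (SE 0.159), and of TGF-beta signalling 5 of 16, with Ski (-0.72, SE 0.129) and Smad6 (-0.72, SE 0.138). Lhx2 (-0.52, SE 0.155) and Cald1 (-0.39, SE 0.104) were among the 3 of 11 genes of the activated list that were lower. Of the collagen processing genes 1 of 10 was higher, P4ha2 (0.49, SE 0.128). Without HS replicate 2, 2 quiescent and 1 activated gene were lower and 2 activated genes were higher. Without Con-FMT replicate 3, 3 quiescent genes were lower. All genes called lower were 14.3% and 18% in these fits, and the count of the fibrillar list was near the share of all genes.

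Between the recipient groups, where 12% of all tested genes were lower and 6.72% higher in A10-FMT, 6 of 10 collagen processing genes were lower in A10-FMT than in Con-FMT, with P4ha1, a prolyl hydroxylase, at -1.5 (SE 0.444) and Serpinh1 at -1.28 (SE 0.222). Col4a1 (-0.71, SE 0.129) and Col4a2 (-0.67, SE 0.127) were the 2 of 8 basement membrane genes that were lower. TGF-beta signalling had 5 of 16 higher, including the inhibitory Smad6 (0.61, SE 0.138) and Smad7 (0.60, SE 0.149), and 1 lower, Tgif1 (-0.45, SE 0.131). Quiescent stellate genes had 2 of 13 higher, Tcf21 (0.78, SE 0.124) and Hand2 (0.63, SE 0.177). In HS+A10 against HS, 1 gene of all 8 lists was called, Hspg2 (0.41, SE 0.114), which encodes perlecan, and it was not called without HS replicate 2, where 1 fibrillar gene was called higher.

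In the comparison of the 4 HS groups with Con and A10, added after the data had been seen (20.3% of all tested genes higher and 12.1% lower), 6 of 12 fibrillar genes were higher and 0 lower, with Postn at 0.85 (SE 0.117) and Col14a1 at 0.56 (SE 0.116). Of 13 quiescent stellate genes, 7 were higher, including Colec11 (0.58, SE 0.114) and Reln (0.57, SE 0.0960). Of 11 activated genes 3 were higher, including Lgals1 (0.69, SE 0.20) and Vim (0.48, SE 0.151), the filament gene of mesenchymal cells. Basement membrane genes were split, with 4 of 8 higher, including Col4a2 (0.66, SE 0.0778) and Col4a1 (0.41, SE 0.0792), and Col15a1 lower (-0.46, SE 0.0935). Without Con and A10 replicate 3, 5 quiescent genes and 1 activated gene were higher. The share of all tested genes called higher in that fit was not counted.

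**Figure D4:**
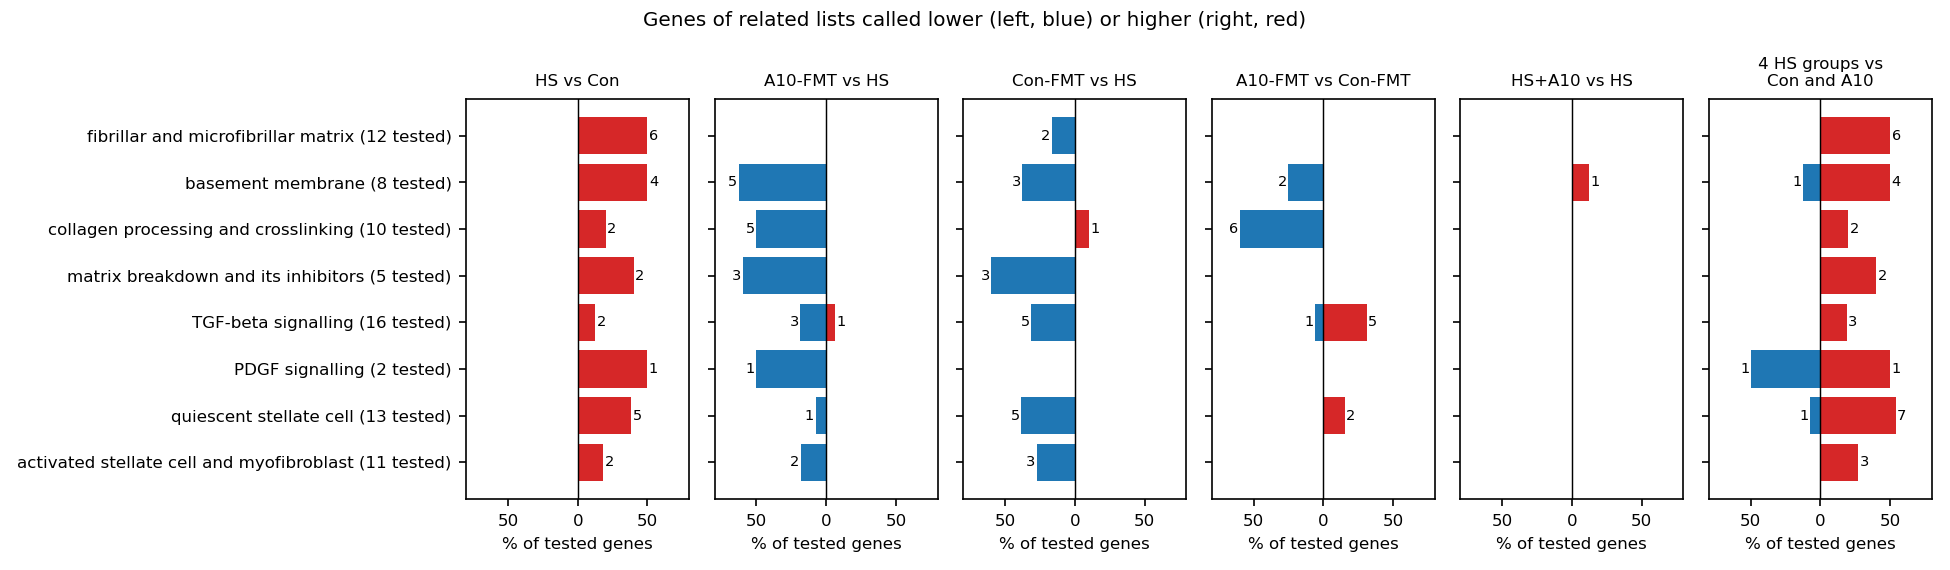
Share of the tested genes in 8 lists that were called lower (left) or higher (right) in 6 comparisons, with the number of genes beside each bar. In HS against Con 6 of 12 fibrillar and microfibrillar genes were higher, and in A10-FMT against Con-FMT 6 of 10 collagen processing genes were lower.

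Sums of marker genes of other cells moved with some groups. Sinusoidal endothelial genes summed to 84.58 to 109.0 RPKM in HS+A10 and to 46.43 to 77.52 in the other groups, and portal fibroblast genes to 5.23 to 9.64 in HS against 4.92 to 5.52 in Con. Kupffer cell and macrophage genes were lowest in A10-FMT (76.73 to 97.48 RPKM, against 100.1 or more in the other libraries). Red blood cell genes summed to 4214 to 12050 RPKM in HS and 1535 to 2958 in Con, and hepatocyte genes to 41070 to 48140 in HS and 45680 to 62370 in Con. Adipocyte genes summed to 10.16 to 21.05 RPKM in HS and 21.06 to 24.72 in HS+A10, above 7.47 to 8.88 in Con. This sum was mostly 1 gene, Fabp4, which made up 20.91 of the 21.05 RPKM in HS replicate 2. Outside Con-FMT replicate 3, the listed adipocyte genes Adipoq, Plin1, Lep and Cfd reached at most 0.11, 0.04, 0.02 and 2.61 RPKM. Vascular smooth muscle genes, Des included, summed to 3.86 to 4.67 RPKM in HS, above 3.17 to 3.59 in Con. This sum was mostly Des, itself 1 of the 10 markers, and the listed gene Smtn, at 1.90 and 2.10 RPKM in HS replicate 2. The means of HS and Con were 0.29 and 0.27 RPKM for Myh11, 0.107 and 0.103 for Actg2, and 0.133 and 0.05 for Cnn1. The part of other cells in the values of the stellate markers was not tested.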

How the data were processed

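The authors enriched liver mRNA with oligo(dT), sequenced it on an Illumina HiSeq and, per the paper's methods, mapped reads to reference genes with SOAPaligner. The submitters' notes name Bowtie 0.12.2 and mm10 (GRCm38). The deposited values are RPKM with 2 decimals, used here without further scaling. The members and gene lists were chosen with earlier results of these data known.

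The 10204 of 19057 genes that averaged 1 RPKM or more were tested with limma 3.58.1 in R 4.3.3 on log2(RPKM + 1), with 1 mean per group over all 18 libraries and a variance trend. P-values are two-sided and adjusted over all tested genes by the Benjamini-Hochberg method. DEGseq, the test of the study, was not used since it models counts from reads and these values are not counts. Descriptions were made in Python 3.11.15. The fit was tested on simulated data first.

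Besides the members, the text names, for each list, comparison and direction, the 2 called genes with the largest change, and for each member the 3 tested genes with the highest correlation over 18 libraries. A gene that this rule would name is not reported here. Other genes were named after their values had been seen: Bgn, Sparc, Col5a1 and Fn1 in HS against Con, Lrat, and the marker genes Myh11, Actg2, Smtn, Cnn1, Fabp4, Adipoq, Plin1, Lep and Cfd. Alternatives were another pseudocount, other filters and scalings, a replicate block, fewer libraries, no variance trend and a stricter threshold. The comparison of the 4 HS groups and the joint removal of libraries were added after the data had been seen. Marker sums add the RPKM of listed genes of a cell type.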

Additional observations from a re-analysis of the deposited data

Results flagged for a closer look

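Lum deserves a closer look because A10-FMT and Con-FMT, which were treated alike except for the donors of the microbiota, differed in it by a direct test. The log2 difference of A10-FMT minus Con-FMT was 0.60 (SE 0.193, adjusted p = 0.04151, limma), with 3 of 3 A10-FMT libraries (6.43 to 7.21 RPKM) above 3 of 3 Con-FMT libraries (3.69 to 4.69 RPKM). Of all tested genes, 12.1% lay wholly higher in A10-FMT in the same way. The call was lost without any single library of either group.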

How the results depend on the processing

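Of 1187 values of tested markers recomputed under alternatives, 1062 kept their direction and their side of the threshold, 46 lost and 4 gained a call, and 75 changed direction. Of 137 values of Timp1, which was not tested, 130 moved by less than 1 SD between replicates and 7 by more, and 3 took the other sign. The number of markers called in HS against Con went from 2 to 1 with median scaling, with quantile normalization, with the 12 libraries of the study's 4 groups, with only the groups compared and without Con and A10 replicate 3. All tested genes called in HS against Con fell as well. They went from 17.7% to 8.66% with median scaling, 8.52% with quantile normalization and 6.86% without Con and A10 replicate 3. The stricter threshold (adjusted p of at most 0.001 and a log2 change of at least 1) left 0 called in every comparison. In A10-FMT against HS the count of markers went from 1 to 0 with median scaling, quantile normalization and only the groups compared, and in Con-FMT against HS from 3 to 0 with only the groups compared. All tested genes called in A10-FMT against HS went from 23.1% to 11.3% with median scaling and 10.8% with quantile normalization. In A10-FMT against Con-FMT the count of markers went from 1 to 0 with no filter, with the 12 libraries and with the replicate block. For the other settings the share of all tested genes is not given here, so those counts of markers are not set against it. In the comparison of the 4 HS groups the count of markers went from 6 to 3 with a filter of 5 RPKM, which leaves fewer markers tested, and to 3 without Con and A10 replicate 3. The cause was not tested elsewhere. Leaving out 1 library gave 1 to 4 markers called in HS against Con, 0 to 2 in A10-FMT against HS, 2 to 3 in Con-FMT against HS, 0 to 0 in A10-FMT against Con-FMT and 4 to 6 for the 4 HS groups. The number of all genes called in either direction moved too. It was 847 to 1599 in HS against Con, 1297 to 2586 in A10-FMT against HS and 1758 to 2256 in Con-FMT against HS. It was 1178 to 1636 in A10-FMT against Con-FMT and 2626 to 3458 for the 4 HS groups.

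Of 45 pairs of libraries with the same replicate number, 12 had a correlation of deviations over 0.1 (range -0.126 to 0.262, median 0.00669). For HS with HS+A10 it was 0.227, -0.0258 and 0.262 in replicates 1 to 3. For A10-FMT with Con-FMT it was 0.00669, 0.00467 and -0.00979. Pairs with different numbers were not computed, so whether the numbers pair the libraries is not known. With the replicate block, Lum in A10-FMT against Con-FMT had an adjusted p of 0.06032 (limma).

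The 75 values that changed direction were not called there. In A10-FMT against HS, Col1a1 was 0.029 with a pseudocount of 0.1, 0.072 with median scaling and 0.12 with quantile normalization, Col1a2 0.048 and 0.066 with these scalings, and Acta2 0.042 with quantile normalization. In Con-FMT against HS Tgfb1 was 0.048 and 0.091, and in HS+A10 against HS Pdgfrb was 0.015 and 0.012. Without Con and A10 replicate 3, Pdgfrb was 0.0019 in A10 against Con. For the interaction, Col1a1 was 0.078 with the pseudocount, Lum 0.041 and 0.036 and Des 0.042 and 0.026 with the scalings, and without Con and A10 replicate 3 Pdgfrb was -0.019 and Des 0.10. Leaving out 1 library gave, in A10-FMT against HS, -0.37 to 0.46 for Col1a1, -0.39 to 0.34 for Col1a2, -0.31 to 0.68 for Col3a1, -0.46 to 0.045 for Lum and -0.39 to 0.049 for Acta2. In Con-FMT against HS it gave -0.50 to 0.34 for Col1a1, -0.52 to 0.21 for Col1a2, -0.61 to 0.38 for Col3a1, -0.13 to 0.033 for Tgfb1 and -0.25 to 0.31 for Des. In A10-FMT against Con-FMT it gave -0.046 to 0.27 for Col1a1, -0.061 to 0.29 for Col1a2, -0.029 to 0.15 for Dcn and -0.0036 to 0.22 for Pdgfrb. In HS+A10 against HS it gave -0.65 to 0.18 for Col1a1, -0.37 to 0.36 for Col1a2, -0.36 to 0.63 for Col3a1, -0.12 to 0.14 for Pdgfrb and -0.19 to 0.25 for Acta2. In A10 against Con Pdgfrb was -0.11 to 0.067. For the interaction it gave -0.41 to 0.42 for Col1a1, -0.17 to 0.56 for Col1a2, -0.22 to 0.77 for Col3a1, -0.32 to 0.19 for Lum, -0.10 to 0.17 for Pdgfrb, -0.39 to 0.048 for Acta2 and -0.13 to 0.040 for Des.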
